A study of Mus musculus with 6 samples.

Results

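The genes described here supply and receive the Hedgehog signal at the cell surface: the ligand gene Shh, the acyltransferase gene Hhat, the release genes Disp1, Scube1, Scube2 and Scube3, and the co-receptor genes Gas1, Boc, Cdon and Lrp2. They were taken by gene name, and all 10 were found among the 56359 rows of the deposited table of TPM, a transcript level that is scaled to gene length and to the total of the sample. The study compared 3 samples from Tmem216+/+ (wild type) with 3 from Tmem216-/- embryos, all of strain C57BL/6 and taken at embryonic day 12. Tmem216 encodes a membrane protein of the transition zone, the gate at the base of the primary cilium. The sources used here do not give the form of the Tmem216 allele, the part of the embryo that was taken, or whether a sample is 1 embryo or a pool. Each p-value is set against the differences among these replicates, and some of those may be technical.

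Hedgehog ligand is made as a precursor that cuts itself and gains a cholesterol at its new end, and Hhat adds a palmitate to the other end. Disp1, a multipass membrane protein, passes the lipid-bearing ligand out of the cell, and the secreted Scube proteins take it up there. On the receiving cell, Gas1, Boc and Cdon bind the ligand together with its receptor Ptch1, and Lrp2 (megalin), a large endocytic receptor, binds it in the forebrain neuroepithelium. The signal is then passed on through Smo and the Gli factors at the primary cilium. At this stage Shh is known from the floor plate, the notochord, the gut and the posterior limb bud, whereas Gas1, Boc and Cdon are widespread in mesenchyme and neural tissue and are known to be lower in cells that receive strong signal.

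The promoter windows of 3 of the genes are shown because they hold, or lack, the letters of a Gli factor match: Lrp2 and Scube1, which hold them, and Gas1, the gene with the highest deposited TPM, which does not. RefSeq (GRCm38.p6) gave a window for 8 of the 10 genes, with 9 windows in all since Disp1 had more than 1, and each was read over the 250 bases before the annotated start. The Cdon window (chr9:35451826-35452075) lies inside the GENCODE M21 gene, which starts at chr9:35421128 on the plus strand. The bases before that start were not searched. The Gli consensus GACCACCCA, searched on both strands, was in no window of the 8 genes and in 0.225% of 32851 such windows. Its core CCACCC, also searched on both strands and contained in the consensus, was in Lrp2 and Scube1 and in 28.1% of all windows. Capitals mark CCACCC or its reverse complement GGGTGG. The windows lie on the minus strand at chr13:60177536-60177785 (Gas1), chr2:69586030-69586279 (Lrp2) and chr15:83725040-83725289 (Scube1), and are written 5′ to 3′ along the gene.
Gas1: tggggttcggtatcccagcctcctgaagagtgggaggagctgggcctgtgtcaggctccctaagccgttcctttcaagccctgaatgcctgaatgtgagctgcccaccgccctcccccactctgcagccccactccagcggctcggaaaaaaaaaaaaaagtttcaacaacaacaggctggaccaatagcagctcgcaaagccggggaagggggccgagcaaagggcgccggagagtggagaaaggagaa
Lrp2: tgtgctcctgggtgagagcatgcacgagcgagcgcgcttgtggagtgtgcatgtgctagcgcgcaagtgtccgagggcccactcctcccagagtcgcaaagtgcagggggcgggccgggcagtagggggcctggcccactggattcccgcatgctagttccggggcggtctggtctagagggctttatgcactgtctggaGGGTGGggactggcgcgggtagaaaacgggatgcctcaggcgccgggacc
Scube1: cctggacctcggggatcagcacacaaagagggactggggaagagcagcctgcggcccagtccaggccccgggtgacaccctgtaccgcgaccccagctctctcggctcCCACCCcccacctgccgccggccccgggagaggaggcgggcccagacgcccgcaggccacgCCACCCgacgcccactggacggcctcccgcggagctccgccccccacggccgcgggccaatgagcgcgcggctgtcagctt
The Gas1 window had 0 core matches, the Lrp2 window 1 and the Scube1 window 2. The Scube1 window was 75.2% G or C, the Lrp2 window 66.4% and the Gas1 window 58.8%, against a median of 52.4% over all windows.

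Tmem216 was 31.0, 30.7 and 17.4 TPM in wild type replicates 1 to 3, against 2.25, 0.51 and 1.39 TPM in Tmem216-/- replicates 1 to 3 (log2 fold change -3.55, limma adjusted p = 0.0266), so the targeted gene followed the labels. With 1 sample left out at a time its adjusted p reached 0.196, without wild type replicate 1. With all samples kept, Tmem216 also missed the threshold in other limma fits. Its adjusted p was 0.280 with array weights, 0.0874 with no filter, 0.0813 with a covariate for sex and 0.0667 with a pseudocount of 0.1. The log2 fold change of Tmem216 ran from -4.31 to -2.27 over the 8 other fits of all samples. All fold changes here were fitted on log2(TPM + 1) over the 16411 genes that reached 1 TPM in 3 or more samples, and p-values were adjusted over all of them. All 10 genes passed that minimum. TPM keeps no record of the number of reads, so the depth behind each value is unknown.

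None of the 10 genes passed the test for a difference between the genotypes. In limma 0 of 10 passed an adjusted p of 0.05, against 17 of all tested genes (0.104%), and 0 of 10 had an unadjusted p under 0.05, against 4.46% of all tested genes. In no gene did the 3 values of one genotype lie wholly above or below the other 3, whereas 9.57% of all tested genes were separated in this way. The fitted log2 fold change was above 0 for 8 of the genes and below 0 for 2, against 48.3% above 0 over all tested genes. The median was 0.10 over the 10 genes and -0.01 over all tested genes. A missed threshold does not show equal levels, so the 95% confidence intervals are given: over the 10 genes they ran from -0.54 to 0.79 on the log2 scale, or from 0.689-fold to 1.73-fold, and each of them contained 0. Each interval lay inside a change of 2-fold in either direction, as did those of 84.9% of all tested genes, and 6 of the 10 lay inside 1.5-fold. These are folds of TPM + 1, which understate a change in TPM for low genes. The 2-fold bound did not hold in every other fit. With a pseudocount of 0.1 the upper bound of Lrp2 was 1.04 on the log2 scale. Without Tmem216-/- replicate 1 that of Shh was 1.05. In whole tissue RNA, fewer cells of a type and less RNA per cell cannot be told apart.

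**Figure D1:**
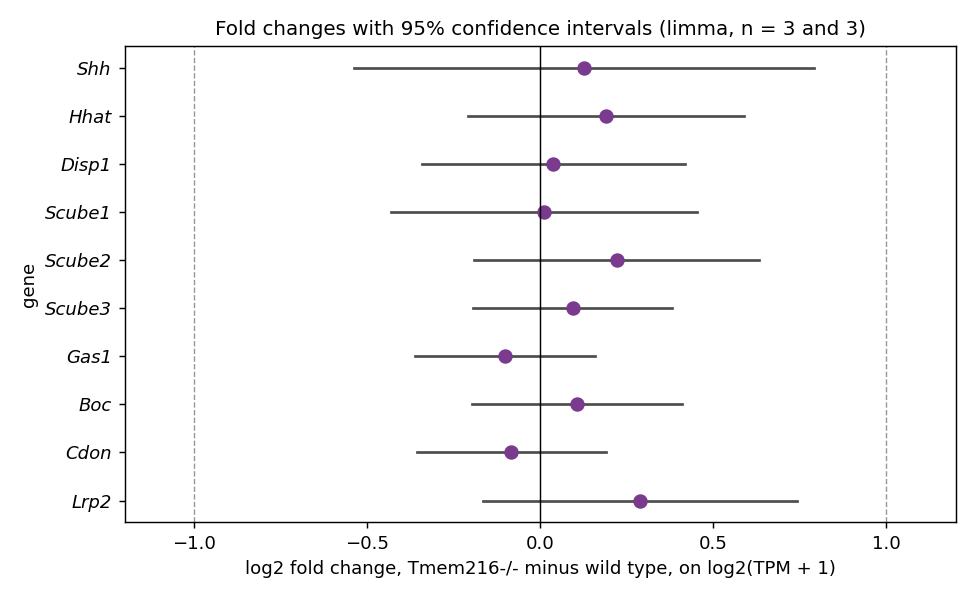
Fitted log2 fold change of each gene (points) with its 95% confidence interval (bars) from limma on log2(TPM + 1), 3 wild type and 3 Tmem216-/- samples. The dashed lines mark a change of 2-fold in TPM + 1 in either direction. Each of the 10 intervals crosses 0 and ends inside the dashed lines, and that of Shh is the widest.

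Shh, the ligand gene (ENSMUSG00000002633, mm10 chr5:28456815-28467256, minus strand), was 7.02, 6.28 and 12.9 TPM in wild type against 7.42, 11.1 and 9.33 TPM in Tmem216-/-. Wild type replicate 3 held the highest of the 6 values and wild type replicate 2 the lowest, so the Tmem216-/- values all lay inside the wild type range. The means were 8.72 ± 3.60 and 9.28 ± 1.84 TPM (SD, n = 3 each), and the log2 fold change was 0.13 with a 95% interval from -0.54 to 0.79 (limma adjusted p = 0.983). The exact two-sided permutation p was 0.7, where 3 against 3 samples cannot go below 0.1. The residual SD of Shh was larger than that of 82.7% of tested genes, the highest such share among the 10. Without wild type replicate 3 the log2 fold change of Shh was 0.41 (interval -0.06 to 0.88, limma adjusted p = 0.687), and without wild type replicate 2 it was -0.052.

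The other ligand genes were lower than Shh per length of transcript. Ihh, the ligand of cartilage and gut, was 1.96, 1.38 and 0.41 TPM in wild type against 0.87, 0.32 and 0.99 TPM in Tmem216-/-. Dhh, the ligand of nerve sheath and gonad, was 0.80, 1.31 and 0.56 TPM against 0.83, 0.84 and 0.58 TPM. Both missed the minimum for testing, and their groups overlapped.

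Hhat, which palmitoylates the ligand in the secretory pathway (ENSMUSG00000037375, chr1:192496711-192771223), was 4.52, 3.74 and 5.18 TPM in wild type against 5.63, 4.66 and 5.40 TPM in Tmem216-/-. Tmem216-/- replicates 1 and 3 were above each wild type value and replicate 2 was inside their range. The log2 fold change was 0.19 (95% interval -0.21 to 0.59, limma adjusted p = 0.983, exact permutation p = 0.2). Disp1, the exporter (ENSMUSG00000030768, chr1:183086266-183221522), was 12.9, 11.1 and 14.5 TPM against 14.2, 11.1 and 14.4 TPM, respectively. Replicate 2 was the lowest in both genotypes. Its log2 fold change was 0.04 (interval -0.34 to 0.42, limma adjusted p = 0.988).

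Of the Scube genes, which encode secreted proteins with EGF repeats and a CUB domain, Scube1 and Scube3 lay between 28.8 and 49.2 TPM and Scube2 between 2.09 and 3.26 TPM. Scube1 (ENSMUSG00000016763, chr15:83604999-83725021) was 31.5, 32.3 and 49.2 TPM in wild type against 34.4, 41.0 and 36.6 TPM in Tmem216-/-. Wild type replicate 3 stood above the other 5 samples, and the means of 37.7 ± 9.996 and 37.3 ± 3.37 TPM (SD, n = 3 each) gave a log2 fold change of 0.01 (interval -0.43 to 0.45, limma adjusted p = 0.998). Without wild type replicate 3 the log2 fold change of Scube1 was 0.22 (interval -0.03 to 0.46, limma adjusted p = 0.685). Scube3 (ENSMUSG00000038677, chr17:28142141-28174854) was 29.0, 28.8 and 35.2 TPM against 36.2, 32.4 and 30.8 TPM. Its values interleaved, with a log2 fold change of 0.09 (interval -0.19 to 0.38).

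Scube2, a member of this family with a known role in spreading Hedgehog ligand in fish and mouse bone (ENSMUSG00000007279, chr7:109798676-109865679), was 2.22, 2.25 and 2.09 TPM in wild type against 2.25, 3.26 and 2.70 TPM in Tmem216-/-. The 3 wild type values were close together, Tmem216-/- replicates 2 and 3 were above them, and replicate 1 was level with the highest of them. The ratio of the mean TPM was 1.25, and the log2 fold change on log2(TPM + 1), a scale that understates the change of low genes, was 0.22 (interval -0.19 to 0.63, limma adjusted p = 0.983, exact permutation p = 0.2). The summed level of the 3 Scube genes was 70.9 ± 13.5 TPM in wild type against 73.2 ± 3.32 TPM in Tmem216-/- (SD, n = 3 each). Scube1 made up 52.7% ± 3.66 and 51.0% ± 3.33 of that sum, Scube3 44.1% ± 3.01 and 45.3% ± 3.91, and Scube2 3.17% ± 0.65 and 3.73% ± 0.59. These shares differed between genotypes by less than the spread within them.

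Gas1, a membrane-anchored co-receptor, was the only co-receptor gene near 100 TPM. Gas1 (ENSMUSG00000052957, chr13:60174405-60177365) was 98.3, 107 and 108 TPM in wild type against 104, 84.6 and 105 TPM in Tmem216-/-. Tmem216-/- replicate 2 was the lowest of the 6, and the other 2 Tmem216-/- values lay inside the wild type range. The means were 105 ± 5.53 and 97.9 ± 11.5 TPM (SD, n = 3 each), with a log2 fold change of -0.10 (interval -0.36 to 0.16, limma adjusted p = 0.983). A long noncoding RNA, Gm48488, overlaps Gas1 on the other strand and was 28.9 ± 6.73 and 25.9 ± 1.54 TPM (log2 fold change -0.12). Whether the library kept strand is not given in the sources used here, so reads of the shared bases cannot be assigned to one of the pair with certainty.

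Boc and Cdon encode related immunoglobulin and fibronectin repeat receptors, and their ranges overlapped in wild type. In Tmem216-/- each Boc value was above each Cdon value. Boc (ENSMUSG00000022687, chr16:44485049-44558897) was 34.0, 32.0 and 41.6 TPM in wild type against 36.4, 37.1 and 42.1 TPM in Tmem216-/-. The genotypes overlapped because wild type replicate 3 was near the highest Tmem216-/- value, and the log2 fold change was 0.11 (interval -0.20 to 0.41, limma adjusted p = 0.983). Cdon (ENSMUSG00000038119, chr9:35421128-35507652) was 30.9, 32.2 and 31.2 TPM against 32.8, 25.8 and 30.7 TPM. The wild type values were within 1.33 TPM of each other, Tmem216-/- replicate 2 was lower, and the log2 fold change was -0.08 (interval -0.36 to 0.19, limma adjusted p = 0.983). Tmem216-/- replicate 2 was thus the lowest sample for both Gas1 and Cdon, and not for Boc. That sample was the lowest of the 6 for 14.9% of all tested genes.

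Lrp2, the endocytic co-receptor gene, did not pass either. Its fitted fold change was the largest of the 10 genes as reported and in 9 of the 14 other fits. It was exceeded by Shh without wild type replicate 3 (log2 fold change 0.41 against 0.39), by Scube2 without wild type replicate 2 (0.24 against 0.17) and with a covariate for sex (0.28 against 0.25), and by Hhat without Tmem216-/- replicate 2 (0.258 against 0.255), and it was not tested with the filter at 5 TPM. Lrp2 (ENSMUSG00000027070, chr2:69424340-69586065) was 2.10, 1.60 and 2.53 TPM in wild type against 2.32, 2.90 and 3.0 TPM in Tmem216-/-. Tmem216-/- replicates 2 and 3 were above each wild type value, while replicate 1 lay below wild type replicate 3. The ratio of the mean TPM was 1.32, and the log2 fold change was 0.29 (interval -0.17 to 0.74, limma adjusted p = 0.983, exact permutation p = 0.2). The adaptor gene Dab2, whose protein binds the tail of megalin, was 39.3, 41.6 and 45.7 TPM in wild type against 54.6, 52.4 and 45.8 TPM in Tmem216-/-, a log2 fold change of 0.26 (limma adjusted p = 0.983, unadjusted p = 0.0446). Lrpap1, the only other listed megalin partner gene that was tested, had a log2 fold change of -0.07 and overlapping groups. Cubn and Amn, which encode the partner receptor of megalin in absorptive epithelia, were at 0.24 to 0.31 TPM and 0.21 to 0.36 TPM over all 6 samples. They are also markers of the visceral yolk sac.

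The summed level of the 4 co-receptor genes was 174 ± 9.19 TPM in wild type against 169 ± 16.1 TPM in Tmem216-/- (SD, n = 3 each). Gas1 made up 60.1% ± 1.62 of the sum in wild type and 57.8% ± 1.57 in Tmem216-/-, Boc 20.6% ± 2.08 and 22.9% ± 2.04, Cdon 18.1% ± 0.94 and 17.6% ± 0.90, and Lrp2 1.19% ± 0.24 and 1.64% ± 0.31. Each of these shares overlapped between the genotypes, that of Gas1 with 59.0% in the lowest wild type and 59.4% in the highest Tmem216-/- sample. The Boc to Cdon ratio of TPM was 1.10, 0.99 and 1.33 in wild type and 1.11, 1.44 and 1.37 in Tmem216-/-, so the groups overlapped.

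**Figure D2:**
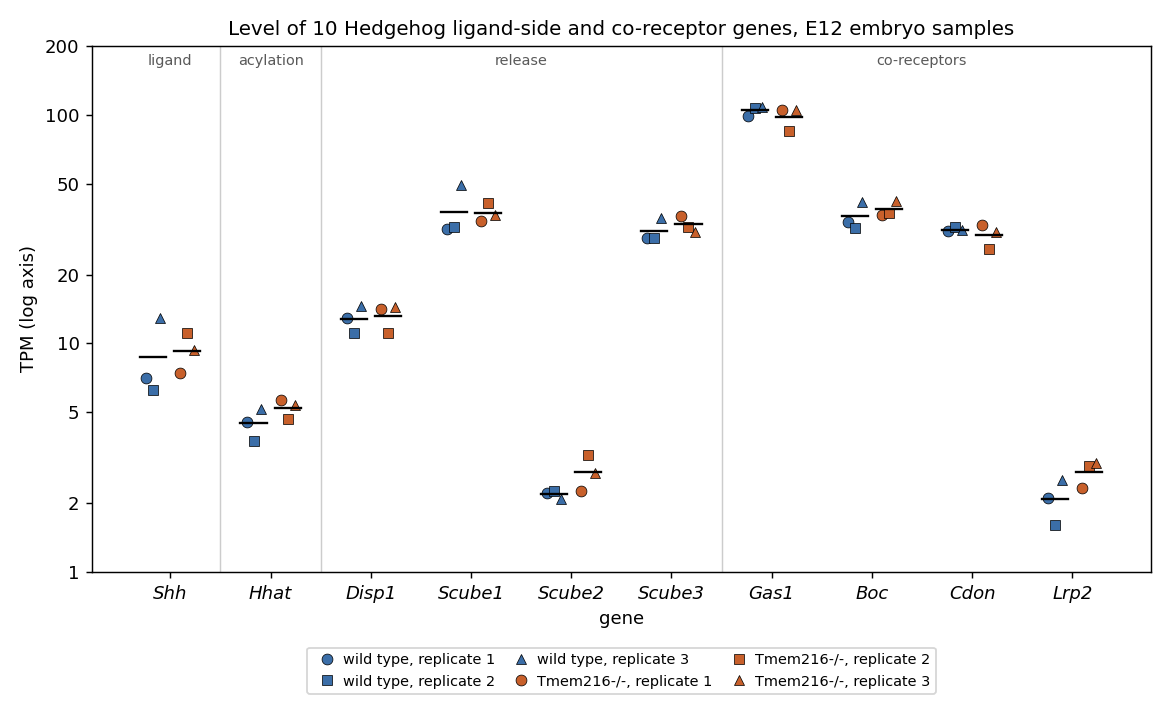
TPM of each gene in each of the 6 samples on a log axis, wild type in blue and Tmem216-/- in orange, with the marker shape for the replicate number and a bar for the group mean. Gas1 lies near 100 TPM in both genotypes, Scube2 and Lrp2 between 1.60 and 3.26 TPM, and the colours overlap for every gene.

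The order of the levels was nearly the same in both genotypes. By mean TPM, a level per length, wild type ran Gas1, Scube1, Boc, Cdon, Scube3, Disp1, Shh, Hhat, Scube2 and Lrp2. In Tmem216-/- it ran Gas1, Boc, Scube1, Scube3, Cdon, Disp1, Shh, Hhat, Lrp2 and Scube2. In each genotype Gas1 was above the next gene in every sample, Hhat was below Shh in range and above Scube2 and Lrp2, and Disp1 was below the group of Scube1, Boc, Cdon and Scube3. Neighbours inside that group, Disp1 and Shh, and Scube2 and Lrp2 had ranges that overlapped, so their order was within the spread.

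The level between genes also depends on the transcript length that is used. The length listed in the table equals that of an annotated coding transcript (GENCODE M21) for 9 of the 10 genes, with Hhat the exception, but not always that of the longest. For Gas1 the listed length was 1155 bases and the longest coding transcript 2961 bases, and for Scube3 they were 3822 and 6876 bases. Scaled to the longest coding transcript, the wild type level would be 40.8 TPM for Gas1, 35.9 for Boc, 30.2 for Cdon, 29.1 for Scube1 and 17.2 for Scube3. In Tmem216-/- it would be 38.2 TPM for Gas1 and 38.6 for Boc. If the listed length entered the TPM, the distance of Gas1 from Boc depends on that choice. A ratio of TPM within a gene does not depend on the length. The fold changes fitted on log2(TPM + 1) depend on the length in part, since the added 1 weighs more at a lower level. For Hhat the fitted value was 0.23 with a pseudocount of 0.1 and 0.11 with a pseudocount of 5. Which length entered the TPM is not given in the sources used here.

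The 10 genes varied between samples in several patterns. Wild type replicate 3 held the highest wild type value for 8 of them (45.6% of all tested genes), and wild type replicate 2 the lowest of all 6 values for 6 of them (25.9% of all tested genes). By the root mean square difference of centred log2(TPM + 1) values over the 6 samples, the 3 genes most like Shh out of 13821 ranked were Lypd1 (0.05), a Ly6 family membrane protein gene, Hoxa2 (0.06), a hindbrain Hox gene, and Pcdhga3 (0.06), a clustered protocadherin gene that shares exons with its neighbours. The median over all tested genes was 0.37, which is no measure for genes picked as the nearest. The difference keeps the size of the variation, so a gene that varies little cannot lie near Shh, whatever its pattern. Lypd1 was 4.65, 3.73 and 8.03 TPM in wild type against 4.93, 7.19 and 6.36 TPM in Tmem216-/-. Scube1 ranked 72 in likeness to Shh, while Lrp2 ranked 1099, Boc 1502, Scube3 3667, Hhat 4113, Scube2 5204, Disp1 5536, Gas1 7829 and Cdon 8519.

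**Figure D3:**
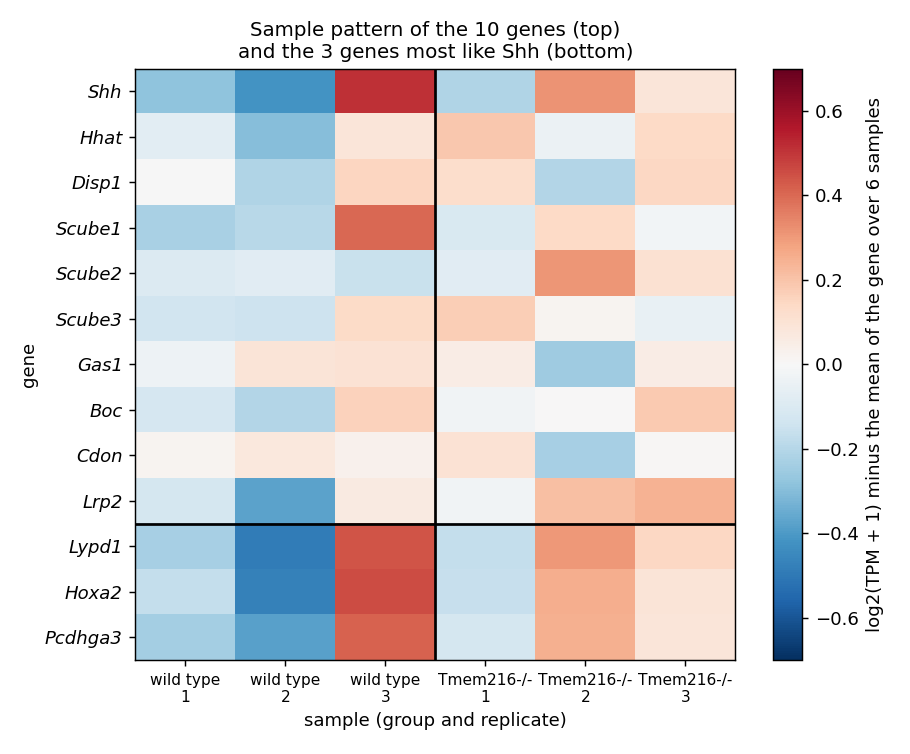
Log2(TPM + 1) minus the mean of the gene over the 6 samples, for the 10 genes (top) and the 3 genes most like Shh (bottom), with red above and blue below that mean. Shh and Scube1 are highest in wild type replicate 3, Gas1 and Cdon are lowest in Tmem216-/- replicate 2, and no row is split cleanly by the line between the genotypes.

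Other genes of the pathway were read from the same fit. Of 30 listed genes 24 were tested, and in limma 0 passed in either direction, 2 had an unadjusted p under 0.05, 7 were above 0 and 17 below, with a median log2 fold change of -0.08. The groups of 5 of the 24 did not overlap, against 9.57% of all tested genes. Of these, Gli1 and Hhip were lower in Tmem216-/-. Gli3 (log2 fold change 0.07), Gpc6 (0.17) and Dab2 (0.26) were higher. Gli1, a factor gene that is itself a target of the pathway, was 17.45, 16.2 and 19.8 TPM in wild type against 11.7, 13.2 and 10.6 TPM in Tmem216-/-. Each Tmem216-/- value was below each wild type value, and the log2 fold change was -0.55 (interval -0.88 to -0.23, limma adjusted p = 0.593, unadjusted p = 0.0053). With 1 sample left out, the log2 fold change of Gli1 ran from -0.63 to -0.48. Of the 8 listed receptor, transducer and Gli genes, 7 were below 0 and 1 above. Hhip, a membrane protein that binds and removes ligand, was 1.76, 1.74 and 1.55 TPM against 1.12, 1.09 and 1.11 TPM (log2 fold change -0.35, limma adjusted p = 0.983). Its groups were separated as well. Ptch1, the receptor, and Smo, the transducer, had log2 fold changes of -0.13 and -0.04 with overlapping groups. Without wild type replicate 3 these values were -0.0091 and 0.029, and without wild type replicate 2 they were -0.22 and -0.12.

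Heparan sulphate proteoglycans hold Hedgehog ligand at the cell surface. Of 9 such genes and their synthesis enzymes 8 were tested, 0 passed in limma, 4 were above 0 and 4 below, and the median log2 fold change was -0.01. Gpc1, a glypican gene, was 80.6, 68.6 and 106 TPM in wild type against 72.9, 62.9 and 65.6 TPM in Tmem216-/- (log2 fold change -0.32, limma adjusted p = 0.983), and its groups overlapped. Without wild type replicate 3, the highest sample, the log2 fold change of Gpc1 was -0.15, and without wild type replicate 2 it was -0.46. The relatives of Disp1, Disp2 and Disp3, were at -0.11 and -0.06 with overlapping groups.

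Markers of the tissues in the samples were set beside these values. The summed level of the floor plate genes Foxa1, Foxa2, Ntn1 and Spon1 was 59.3, 55.8 and 113 TPM in wild type against 65.5, 74.4 and 65.0 TPM in Tmem216-/-, with wild type replicate 3 the highest and replicate 2 the lowest, as for Shh. Most of that sum was Ntn1, at 35.06, 35.72 and 69.15 TPM in wild type, and Spon1, at 16.5, 14.6 and 35.0 TPM. Ntn1 was lowest in wild type replicate 1. Foxa1 had another order, highest in Tmem216-/- replicate 3 (3.83 TPM) and lowest in Tmem216-/- replicate 1 (2.75 TPM). Foxa2, a floor plate and endoderm factor, was 4.82, 2.46 and 5.14 TPM against 2.80, 3.03 and 3.42 TPM (log2 fold change -0.29). That value was -0.55 without wild type replicate 2, -0.14 without wild type replicate 3, -0.18 without wild type replicate 1 and -0.048 with array weights. The summed level of 3 neuron genes was likewise highest in wild type replicate 3 (1429 TPM) and lowest in wild type replicate 2 (637 TPM), with 905 to 1035 TPM in Tmem216-/-. Most of that sum was Tubb3, a neuronal tubulin gene, at 775, 470.1 and 1227 TPM in wild type and 692 to 812 TPM in Tmem216-/-. Map2, a microtubule-binding protein gene of neurons, had another pattern, with 134, 115 and 127 TPM in wild type against 151, 159.8 and 153 TPM in Tmem216-/- (log2 fold change 0.31, limma adjusted p = 0.76, unadjusted p = 0.0094). Its groups did not overlap. Map2 was picked for the smallest p of its list, so the 9.57% of all tested genes is no measure for it. The part of these tissues in the values of Shh and Scube1 was not tested.

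Of 4 notochord genes 3 were tested, 0 passed and all 3 were below 0. Their summed level was 12.7 to 18.3 TPM in wild type against 12.9 to 16.0 TPM in Tmem216-/-, and Noto was listed at 0 in all 6 samples. The notochord factor T had a log2 fold change of -0.31 and overlapping groups. Of 4 genes of the limb polarizing region and ridge 3 were tested, and 0 passed. Fgf8, a signal of the limb ridge and of brain boundaries, was 5.01, 6.37 and 5.60 TPM against 2.93, 5.02 and 3.63 TPM (log2 fold change -0.47, limma adjusted p = 0.983).

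Heart muscle was the only tissue list given here with genes that passed. All 6 of its genes rose, and their summed level was 30.8 to 45.3 TPM in wild type against 672 to 1735 TPM in Tmem216-/-. Myh6, the alpha myosin heavy chain gene, was 3.75, 5.59 and 3.54 TPM against 57.8, 106 and 71.8 TPM (log2 fold change 3.88, limma adjusted p = 0.0174). Myl7, the atrial myosin light chain gene, was 1.91, 4.91 and 2.04 TPM against 151, 436 and 269.9 TPM (log2 fold change 6.13, limma adjusted p = 0.0174). Myl7 missed the threshold in limma without wild type replicate 1 (adjusted p = 0.0956, log2 fold change 5.95), wild type replicate 3 (0.0551, 5.98) or Tmem216-/- replicate 3 (0.0614, 6.11). Myh6 missed it without wild type replicate 1 (0.0956, 3.81) or wild type replicate 3 (0.0551, 3.78). Tmem216-/- replicate 2 had the highest summed level of the heart muscle genes. It was the lowest of the 6 samples for 2 of the 10 genes, Gas1 and Cdon (14.9% of all tested genes). It was the highest for 1, Scube2 (11.7% of all tested genes). The 4 endothelial genes were each above 0 with 0 passing, and their summed level was 84.2 to 97.7 TPM in wild type against 97.5 to 115 TPM in Tmem216-/-. The part of heart and vessel tissue in the levels of the 10 genes was not tested. Without Tmem216-/- replicate 2 the log2 fold changes were -0.00066 for Gas1, 0.013 for Cdon and 0.12 for Scube2.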

How the data were processed

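RNA sequencing was run on 3 wild type and 3 Tmem216-/- samples. The deposited values are TPM per gene, made by the authors; the submitters' processing notes name CASAVA 1.8, HISAT2, StringTie, RSEM and mm10, and filters are not given in the sources used here. The deposited table also lists a gene length in bases and 2 unused columns, which matched the mean of each genotype with a largest difference of 3.3e-06. Where identifiers shared a symbol, the one with the highest mean kept it.

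Genes that reached 1 TPM in 3 or more samples were tested on log2(TPM + 1) with limma 3.58.1 in R 4.3.3 (lmFit, eBayes with trend, two-sided, Benjamini-Hochberg over 16411 genes, adjusted p under 0.05). SD is over samples, and permutation p-values take every assignment of the samples to the genotypes. The code was tested on simulated data. Gene positions are GENCODE M21 (GRCm38, the assembly of mm10) and promoters RefSeq GRCm38.p6.

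The members, lists and tests were chosen with earlier results of these data known. Other genes named are Tmem216, Ihh, Dhh, Ptch1, Hhip, Gli1, Smo, the pathway genes with the 4 smallest p, the gene of each tissue list with the smallest p and the next in heart muscle (the rule allowed up to 2 a list), and the 3 most like Shh. A floor plate gene that this rule selects is not reported here and was left out of its list. Tubb3, Foxa1, Ntn1, Spon1, Disp2, Disp3, Gli3, Gpc6, Lrpap1, Cubn, Amn, Noto and Gm48488 were named after their values were seen. The alternatives changed the pseudocount (0.1 or 5), the filter (none, or 5 TPM), the scaling (median of ratios) or the model: array weights, replicate number as a block, the Y-linked gene Eif2s3y as a covariate for sex, and each sample left out.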

Additional observations from a re-analysis of the deposited data

How the results depend on the processing

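In each of the 14 other fits 0 of the 10 genes and 0 of the other Hedgehog genes passed in limma, and the lowest unadjusted p of any of the 10 was 0.0669. With 1 sample left out the median log2 fold change of the 10 genes was lowest without wild type replicate 2 (-0.011) and highest without wild type replicate 3 (0.21), and that of the other Hedgehog genes from -0.22 to 0.07. The same fits moved Shh from -0.052 to 0.41, Disp1 from -0.056 to 0.15, Scube1 from -0.098 to 0.22 and Cdon from -0.15 to 0.013, while the remaining 6 of the 10 kept their sign in every fit, at 0.090 to 0.28 for Hhat, 0.12 to 0.32 for Scube2, 0.031 to 0.19 for Scube3, -0.15 to -0.00066 for Gas1, 0.031 to 0.21 for Boc and 0.17 to 0.39 for Lrp2 with 1 sample left out. The sex covariate turned Disp1 to -0.061 and Scube1 to -0.051, and array weights turned Scube1 to -0.026; the cause was not tested. Of the other named genes, leaving out 1 sample also turned Smo (-0.12 to 0.029), Lypd1 (-0.0093 to 0.46), Hoxa2 (-0.084 to 0.38) and Pcdhga3 (-0.016 to 0.38). The filter at 5 TPM left no value for Lrp2 and Scube2. Median-of-ratios scaling gave 0.14 for Shh and 0.30 for Lrp2.

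Over all genes, 17 passed as reported, against 0 with array weights (531 at an unadjusted p under 0.05 in limma) and 0 with no filter (1207, with 30598 genes tested). With 1 sample left out the count ran from 0 without wild type replicate 1 (518 at an unadjusted p under 0.05) to 27 without Tmem216-/- replicate 1, with 2 and 1 without wild type replicates 2 and 3 and 9 and 7 without Tmem216-/- replicates 2 and 3. The replicate block gave 25 genes and changed no call among the 10. Samples with the same number share only that number: the deviations from the group means correlated at 0.0161, -0.0934 and 0.101 for replicates 1, 2 and 3, and only wild type replicate 3 was best matched by its own number. The depth of the libraries is unknown, so the limit it sets on the low genes Lrp2 and Scube2 cannot be given.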

Other observations

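Further tissue lists were read beside the Hedgehog genes, and in limma 0 of their genes passed. Nkx2-1, a gene of the ventral forebrain, lung and thyroid whose forebrain domain also makes Shh, was 12.04, 11.1 and 25.5 TPM in wild type against 10.5, 4.0 and 3.60 TPM in Tmem216-/- (log2 fold change -1.33, interval -2.39 to -0.27, limma adjusted p = 0.983). Its highest value was in wild type replicate 3, as for Shh, but its lowest values were in Tmem216-/- replicates 2 and 3, where Shh was 11.1 and 9.33 TPM. Pax8, a gene of the nephric duct, ear and thyroid, was 11.1, 10.4 and 13.2 TPM against 7.44, 5.15 and 4.81 TPM (log2 fold change -0.90, limma adjusted p = 0.382). Tek, an endothelial receptor gene, was 7.14, 6.45 and 6.15 TPM against 9.84, 11.2 and 9.93 TPM (log2 fold change 0.58, limma adjusted p = 0.496). Cldn6, a tight junction gene of gut and other early epithelia, was 18.3, 11.2 and 16.3 TPM against 9.99, 8.30 and 8.96 TPM (log2 fold change -0.67, limma adjusted p = 0.821). Otx2, a gene of the forebrain, midbrain and choroid plexus, was 40.2, 35.0 and 24.4 TPM against 40.8, 50.8 and 53.9 TPM (log2 fold change 0.55, limma adjusted p = 0.983, and 0.35 without wild type replicate 3). In each of these 5 genes the groups did not overlap. Each was picked for the smallest p of its list, so the 9.57% of all tested genes is no measure for them. Of the genes tested, 1 of 2 in the ventral forebrain list was above 0, 1 of 3 for kidney and 1 of 4 for gut endoderm. It was 2 of 3 for choroid plexus and otic genes and 4 of 4 for endothelium. The groups did overlap for Ttr, a carrier protein gene of yolk sac and choroid plexus (log2 fold change -0.75), for Pdgfra, a mesenchymal receptor gene (0.14, and 0.066 to 0.25 with 1 sample left out), and for Pax6, a neural progenitor factor gene (0.15, and 0.042 to 0.26 with 1 sample left out).

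The spread also differed between the genotypes. The Tmem216-/- values spanned a narrower range on the log2 scale than the wild type values for 7 of the 10 genes, and for 73% of all tested genes.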
